A study of Mus musculus with 39 samples.

Results

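The cytoplasmic ribosomal protein genes are the protein-coding genes whose products build the large and small subunits of the ribosome. Members were taken by symbol, as Rpl or Rps followed by a number, together with Rplp0, Rplp1, Rplp2 and Rpsa. Of the 102 protein-coding symbols found in this way or with the same start, 10 kinases of the Rps6k kind, 6 genes marked as pseudogenes in their symbol and 1 binding protein (Rps19bp1) were left out. This gave 85 genes of the 53379 in the tables, of which 46 encode large subunit proteins, 31 encode small subunit proteins and 8 are paralogues (Rpl3l, Rpl7l1, Rpl10l, Rpl22l1, Rpl36al, Rpl39l, Rps27l and Rps27rt). A mean count of 10 or more over the libraries was reached by 83 of the 85, against 11472 of all genes. The 2 others were paralogues. Rpl3l, a muscle form of Rpl3, had no count in any library, and Rpl39l, a testis form of Rpl39, had a mean count of 1.97.

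The libraries came from neocortex of mouse embryos of a mixed C57BL/6J, CD1 background at embryonic day (E) 13 and E16. All embryos were MADM-7 GT/TG;Emx1 Cre/+, so that Cre was active in the Emx1 lineage of the dorsal forebrain and recombined the MADM (Mosaic Analysis with Double Markers) cassettes on chromosome 7. Red (tdT+) and green (GFP+) cells hold both copies of chromosome 7 from 1 parent (uniparental disomy, UPD), and yellow (GFP+/tdT+) cells, the control in the same tissue, hold 1 copy from each parent. By the series' own rule, cells with paternal UPD (patUPD) were red in replicates 1 to 3 and green from replicate 4 on, and the other colour had maternal UPD (matUPD). After libraries with under 40% uniquely aligned reads were left out, 36 of 39 libraries remained: 5 of each colour at E13 and 7 of each at E16. By replicate number these were taken as 6 and 7 embryos. Each library was made from a pool of sorted cells, so less RNA of a gene per cell and fewer cells that express it cannot be told apart.

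Each ribosome carries 1 copy of nearly all of these proteins, and cells hold their mRNAs at high levels and translate them together. Many of the mRNAs start with a C and a run of pyrimidines, the terminal oligopyrimidine (TOP) tract, through which mTOR signalling controls their translation. Dividing progenitors of the cortex make many ribosomes. The genes have also given rise to very many processed pseudogenes, and 291 rows of the tables are annotated as ribosomal protein pseudogenes.

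The TOP tract is shown here because it is the shared sequence by which these genes are usually recognised. In the RefSeq annotation of GRCm38, 65 members had promoter sequence, with 77 start sites. Of the 65, 14 (21.5%) had a C at the annotated start followed by at least 4 more pyrimidines, against 3.01% of 27025 genes of all kinds. When the tract was allowed to begin within 10 bases of the start, 61.5% of the members and 34.4% of all genes had one. The windows below run from 10 bases before the start to 14 bases after it, with the tract in capitals. The last 2, for Rpl4 and Rps3, have no tract at the annotated start.

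Rps6, chr4:86857353-86857377, minus strand: gaagtcgggcCTCTTTTTCgtgacg

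Rpl14, chr9:120571507-120571531, plus strand: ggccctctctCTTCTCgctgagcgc

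Rpl35, chr2:39005117-39005141, minus strand: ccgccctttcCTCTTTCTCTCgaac

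Rplp2, chr7:141447641-141447665, plus strand: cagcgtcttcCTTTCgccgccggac

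Rps27, chr3:90213634-90213658, minus strand: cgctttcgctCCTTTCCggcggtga

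Rpl4, chr9:64173377-64173401, plus strand: tttcctgtgggagcagccgggtaga

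Rps3, chr7:99483695-99483719, minus strand: aagggtcgccgcgctgcgcggcgtc

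In the 300 bases of each promoter window and on both strands, CCGGAAG (a core bound by ETS factors) was found in 40% of the members and 9.93% of all genes. GGGCGG (the GC box) was found in 61.5% and 38.2%, AAGATGGC (the core of the YY1 motif) in 9.23% and 3.19%, and TATAAA in 10.8% and 15.7%. These are matches of letters and not mapped sites.

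The second kind of sequence that bears on the values is the part of a transcript that also occurs elsewhere. Reads that aligned to more than 1 place were dropped before counting, so a read that lies wholly within a stretch shared with a pseudogene gives no count to either gene. The first 2 of the coding stretches below occur in other annotated transcripts, 18 other genes for Rpl23a and 9 for Rps6. The last, from Rpl4, occurs in no other.

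Rpl23a, chr11:78181504-78181553, minus strand, exon 3 of 5: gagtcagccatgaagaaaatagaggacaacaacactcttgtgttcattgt

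Rps6, chr4:86854774-86854823, minus strand, exon 5 of 5: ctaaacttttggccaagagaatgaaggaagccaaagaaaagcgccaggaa

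Rpl4, chr9:64177000-64177049, plus strand, exon 6 of 10: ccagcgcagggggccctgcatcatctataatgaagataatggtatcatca

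The levels of the members differed by far more than their products do in a ribosome. On the scale of counts scaled to 1000000 gene counts per library (CPM) per kb of exon, the highest were Rpl8, a protein of the core of the large subunit, at 1387 and Rpl4, which lines the exit tunnel of the nascent chain, at 1385. The 3 lowest of the 83 were Rpl10l, a retrogene of Rpl10, at 2.84, Rpl23a, which sits at the mouth of the exit tunnel, at 3.61, and Rpl9 at 3.78. The highest level was 488 times the lowest. The 5 members of highest count, Rpl4 and Rpl8 among them, took 43.7% of all counts of the members, and the 40 of lowest count took 5.00%. Rps6, the small subunit protein phosphorylated downstream of mTOR, was at 4.81 CPM per kb of exon, with a mean count of 24.6 against 9000 for Rpl4.

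Among the 83 genes the level went with the share of the transcript that is unique. Of the 50-base stretches of the principal transcript, a median of 42.6% was found in no other annotated transcript (range 1.35% to 100%), and 81 of the 83 shared a stretch with an annotated pseudogene. The 23 members with under 25% unique stretches had a median level of 15.1 CPM per kb of exon, the 24 members with 50% to 75% had 153 and the 11 members with 75% or more had 131. Spearman's rho between the share and the level was 0.53 over the 83 genes, given as a description, since all points come from the same libraries. Rpl35 and Rplp1 are exceptions, with 4.91% and 40% unique stretches and levels of 157 and 1027. Rpl10l is one in the other direction, with 92.4% unique stretches at the lowest level. In what follows each gene is compared with itself across libraries.

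**Figure D1:**
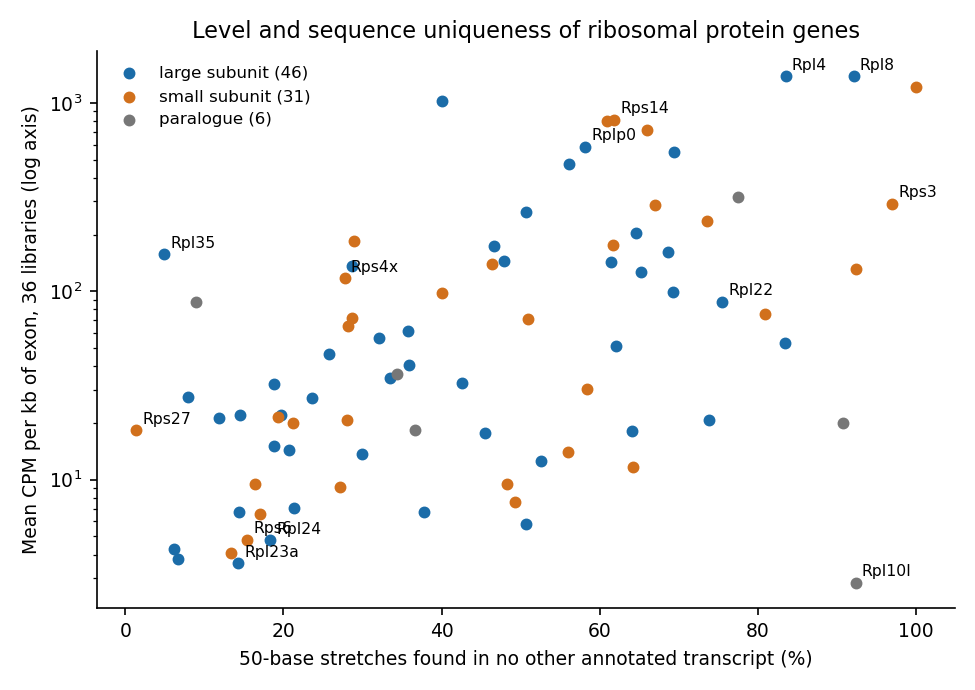
Mean level of the 83 tested ribosomal protein genes over 36 libraries (vertical axis, CPM per kb of exon, log scale) against the percentage of 50-base stretches of the transcript found in no other annotated transcript (horizontal axis). Each point is a gene, blue for the large subunit, orange for the small subunit and grey for paralogues. The genes with mostly unique sequence reach 1387 CPM per kb, and the genes with under 25% unique stretches stay at or below 157.

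The members took 1.09% to 3.22% of all gene counts in a library, with a median of 2.37% (n = 36). In E13 red libraries the share was 2.63% ± 0.237 (SD, n = 5), in E13 green 2.64% ± 0.335 (n = 5) and in E13 yellow 2.19% ± 0.553 (n = 5). In E16 red it was 2.30% ± 0.696 (n = 7), in E16 green 2.08% ± 0.518 (n = 7) and in E16 yellow 2.16% ± 0.543 (n = 7). The groups overlapped in every case. Large subunit genes took 1.17% ± 0.241 and small subunit genes 1.09% ± 0.288 of gene counts over all 36 libraries.

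The extremes of the share sat in libraries with few detected genes. Of the 6 libraries with under 11000 genes detected, 4 had the lowest shares of all: E16 yellow replicate 7 at 1.09%, E16 green replicate 7 at 1.20%, E16 red replicate 6 at 1.24% and E13 yellow replicate 2 at 1.28%. The other 2 had the highest shares, E13 green replicate 4 at 3.22% and E16 red replicate 5 at 3.16%. They also had the largest shares of reads that overlap more than 1 gene and are counted for none, 10.8% and 18.5%. In the 30 other libraries the members took 1.57% to 2.98%. The 4 with the lowest shares also had 2.09% to 2.63% of gene counts in mitochondrial genes, the lowest values of the 36, and E13 yellow replicate 2 and E16 yellow replicate 7 had 40.9% and 44.1% of reads in no gene. The study did not use these 2 libraries, nor E16 red replicates 5 and 6. The part of these differences in the shares was not tested. Several of the results are given with and without these libraries.

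**Figure D2:**
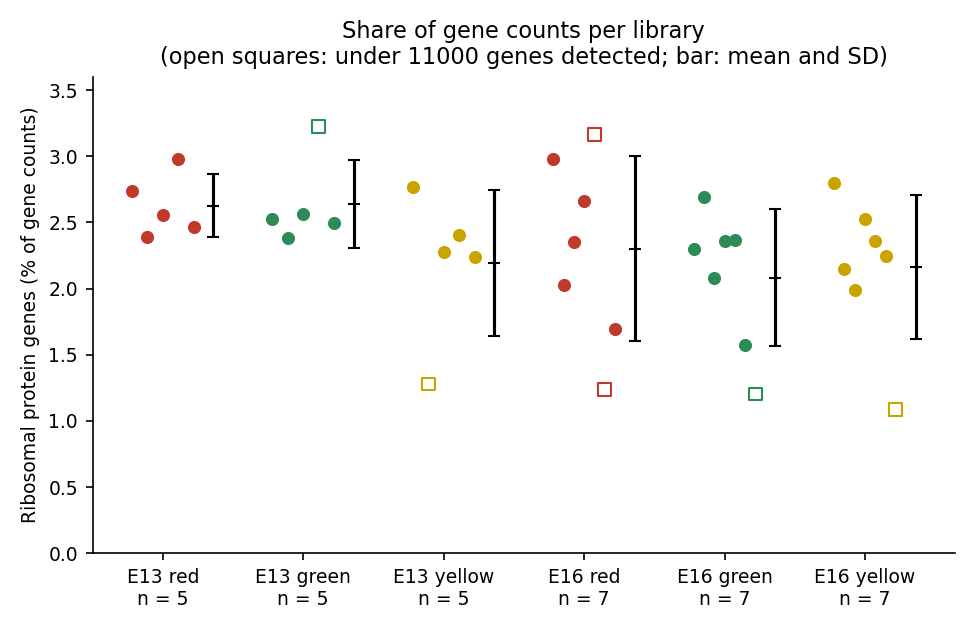
Share of gene counts taken by ribosomal protein genes (vertical axis, %) in each of 36 libraries by age and colour. Points are libraries, open squares are libraries with under 11000 genes detected, and bars give the mean and SD of each group. The squares lie at the extremes, 4 of them from 1.09% to 1.28% and 2 at 3.16% and 3.22%.

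The stability of a gene between libraries followed its count. The 19 members with a mean count of 1000 or more had coefficients of variation of 22.5% to 41.2%. The 38 members between 100 and 1000 had a median of 40.3%, and the 26 under 100 had a median of 71.7%. The lowest coefficient was that of Rpl4 and the highest, 572%, that of Rpl10l, which had 387 counts in E13 yellow replicate 2, 8 in E13 green replicate 4, 1 in each of 3 other libraries and none in 31. Every one of the 36 libraries had counts of 70 of the 83 members.

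The ribosomal stalk, formed by Rplp0, Rplp1 and Rplp2, recruits the GTPases of translation. Rplp0 was at 1111 ± 147 CPM in E13 red, 1254 ± 226 in E13 green and 751 ± 192 in E13 yellow (SD, n = 5 each), and at 1027 ± 271, 810 ± 229 and 938 ± 262 in the same colours at E16 (n = 7 each). Rplp1 had group means of 415 to 642 CPM, the lowest in E16 green and the highest in E13 green cells, and single libraries from 147 to 1133 CPM. Rplp2 was at 246 ± 49.0, 242 ± 96.9 and 182 ± 48.1 CPM at E13, and at 218 ± 130, 174 ± 53.7 and 182 ± 45.2 CPM at E16. For each of the 3 genes the means of E13 red and green were the highest of the 6 groups, and the ranges of all 6 groups overlapped. Rpsa, which is also known as a laminin receptor precursor, was at 67.6 ± 25.3, 66.2 ± 29.1 and 37.3 ± 10.1 CPM at E13 and at 34.7 ± 14.4, 36.3 ± 10.5 and 34.1 ± 8.91 CPM at E16.

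Members of paralogue pairs are given next, each for itself. Rpl22, an RNA-binding protein of the large subunit, had group means between 231 and 284 CPM. Its paralogue Rpl22l1, which Rpl22 is known to repress, had group means between 54.6 and 81.6 CPM. Rps27l, a target of p53, had group means of 201 to 335 CPM. Rps27, with 1.35% unique stretches, had 7.13 to 24.0 CPM. Rps4x, encoded on the X chromosome, had group means of 150 to 223 CPM, and Rps6 of 5.33 to 10.1 CPM. In each of these genes the libraries of all 6 groups overlapped in range.

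**Figure D3:**
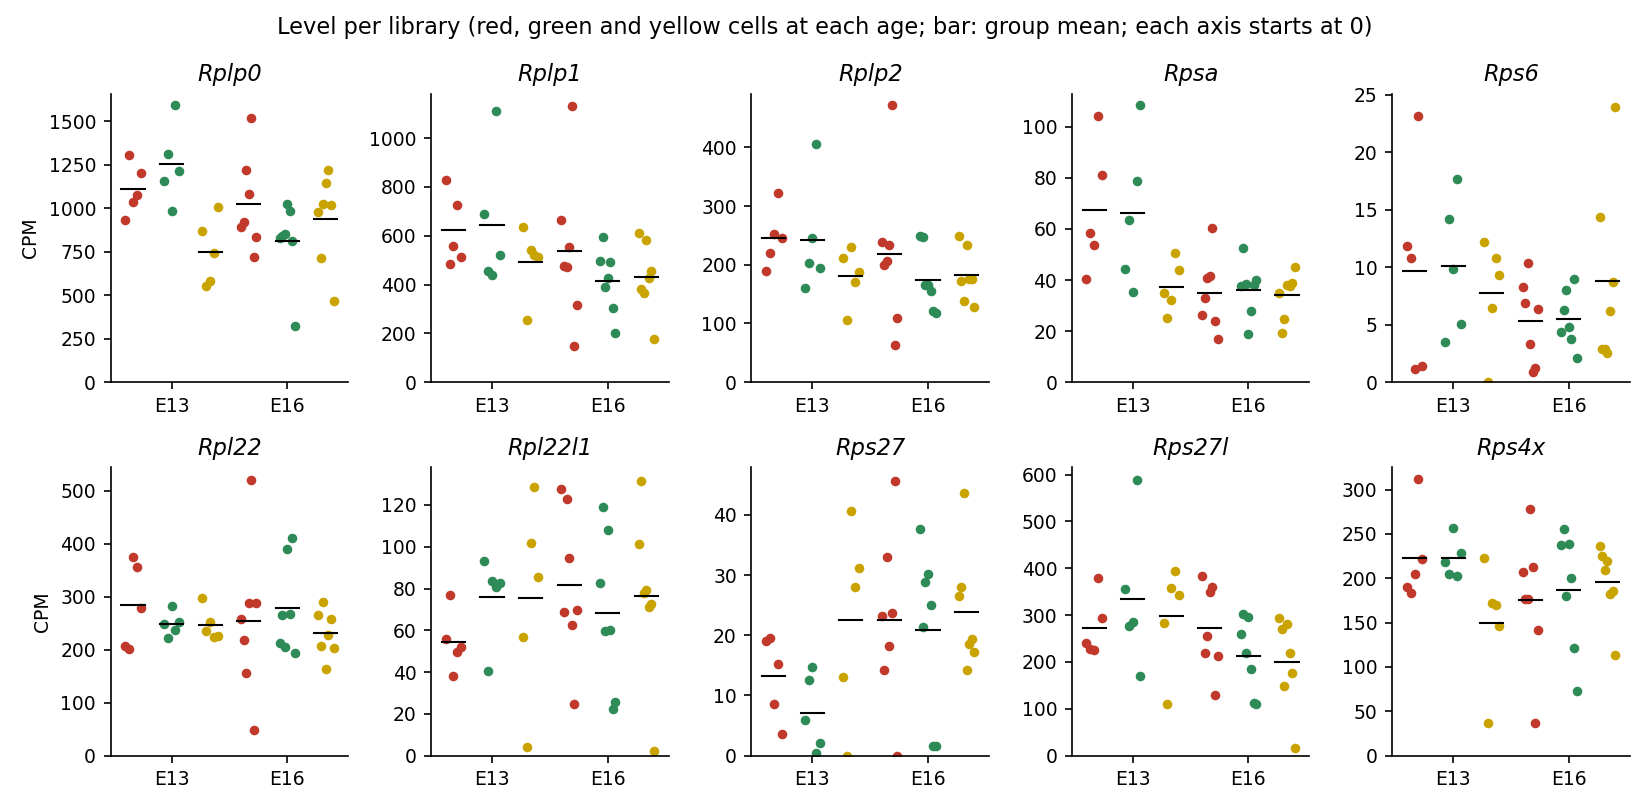
Level per library (vertical axes, CPM, each starting at 0) of 10 ribosomal protein genes at E13 and E16. Points are libraries in the colour of the sorted cells and bars are group means. Rplp0 and Rpsa have their highest means in E13 red and green cells, and in each gene the libraries of the 6 groups overlap.

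The first comparison asked whether the members changed with age. At each age, replicates 1 to 3 and replicates from 4 on carried separate sample numbers. No sample number was shared between the ages, so age and sample number cannot be told apart. The embryos did not all have the same colours. At E13 the embryo of replicate 5 had only its yellow library, and that of replicate 3 had no yellow one. On counts summed per embryo (6 at E13, 7 at E16), 0 of the 83 members passed the test of edgeR at an adjusted p under 0.05, against 3.80% of all 13776 genes tested. At an unadjusted p under 0.05 there were 1 higher and 2 lower members, 3 of 83, against 19.3% of all genes. DESeq2 called none of the members and 9.23% of all genes. The median log2 fold change of the members was -0.01 and that of all genes 0.03. For 51 members (61.4%) the 95% interval lay within a log2 fold change of 1 in either direction, as it did for 15.1% of all genes. For the 19 members with a mean count of 1000 or more it did so in all 19, and for 75% of the 544 genes of any kind with such counts. The log2 fold changes of the 19 were -0.50 to 0.17, with a median of -0.03, against 0.20 for the 544. In a fit of only the embryos with 3 kept libraries, no member passed, against 370 of 13998 genes.

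Rpl14, a large subunit protein, was the only member whose CPM did not overlap between the ages, against 2.93% of all genes tested. Its CPM in the E13 embryos was 589, 492, 566, 638, 469 (the yellow library only) and 536. In the E16 embryos it ran from 200 to 427 with a median of 380. The log2 fold change was -0.50 (SE 0.198, 95% interval -0.92 to -0.08, edgeR adjusted p = 0.161). It passed when the 6 libraries with few genes were left out (log2 fold change -0.60, adjusted p = 0.0370) and when the libraries the study used were taken (-0.60, adjusted p = 0.0425).

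The other 2 members of smallest p were rare. Rps28, a small subunit protein near the mRNA exit, had 2.3 to 18.0 CPM in the E13 embryos and 8.7 to 31.3 in the E16 embryos, and a log2 value of 1.42 for E16 against E13 (SE 0.623, adjusted p in edgeR = 0.218). Rpl10l had -6.54 (SE 2.04, adjusted p = 0.0815), a value that rests on E13 yellow replicate 2, without which the gene did not reach the minimum count. For Rps28 the E13 embryos differed by replicate number, with 6.2 to 18.0 CPM in replicates 1 to 3 and 2.3 to 3.7 in replicates 4 to 6, the sets with opposite direction of UPD by colour. The E16 embryos had 11.3 to 28.3 CPM in replicates 1 to 3 and 8.7 to 31.3 from replicate 4 on. With the set as a further term, chosen after these values were seen, edgeR gave 1.77 (SE 0.653, adjusted p = 0.152), and for Rpl14 -0.50 (SE 0.201, adjusted p = 0.198). The term joins replicates of both ages, so it does not separate age from the sample number.

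By colour the ages gave the same count. No member passed in yellow (83 tested), red (81) or green (82) cells, against 0.149%, 0.322% and 1.39% of all genes. At an unadjusted p under 0.05 there were 2 members in yellow, 1 in red and 4 in green, all lower at E16, against 8.69%, 11.7% and 15.7% of all genes. DESeq2 called 0, 0 and 1, against 1.74%, 2.79% and 6.18% of all genes. The 95% intervals of 22, 19 and 22 members lay within a log2 fold change of 1, against 3.82%, 2.4% and 5.22% of all genes. In yellow cells the smallest p values belonged to Rpl10l, to Rpl10, which completes the large subunit (log2 fold change -1.22, SE 0.526, edgeR adjusted p = 0.478), and to Rpl5, which carries the 5S rRNA (1.19, SE 0.849, adjusted p = 0.865). In red cells they belonged to Rpl4 (-0.36, SE 0.153, adjusted p = 0.341), Rpl23 (0.60, SE 0.348) and Rpl37 (0.71, SE 0.432). The yellow value of Rpl10 includes E13 yellow replicate 2, a library with few genes in which Rpl10 was at its highest. Rpl5 had its highest sum per embryo, 31.6 CPM, in E16 replicate 7, whose yellow library also had few genes. For neither gene is a yellow value given without these libraries.

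In green cells the abundant members stood lower at E16, without passing the test. Rps3, at the mRNA entry of the small subunit, had 1492, 1610, 1689, 2083 and 1697 CPM at E13 and 751 to 1373 CPM (median 1052) at E16. Without the libraries with few genes it had 1492 to 1697 CPM at E13 and 973 to 1373 CPM at E16. Its log2 fold change was -0.64 (SE 0.188, 95% interval -1.04 to -0.24, edgeR adjusted p = 0.112), and it was the member that DESeq2 called (-0.69, adjusted p = 0.0183). Rpl14 followed at -0.78 (SE 0.259, adjusted p = 0.146) and Rpl8 at -0.60 (SE 0.211, adjusted p = 0.162). Of the 19 abundant members 1 had a positive value, and their median was -0.31, against 0.15 for all 542 genes of such counts. Without the libraries with few genes, here E13 green replicate 4 and E16 green replicate 7, the median over all members turned from -0.17 to 0.04. That value is over all members, and none is given for the 19 alone.

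The share of gene counts per embryo, as the mean over its libraries, was 0.299 percentage points lower at E16 than at E13, with a pooled SD of 0.411 between embryos (n = 13). It was 0.281 points lower without the libraries with few genes.

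Other genes of the translation machinery were counted in the same embryo fit, in which 3.80% of all 13776 genes tested passed. Of 39 translation factors tested, 1 rose, the helicase Eif4a2 (log2 fold change 0.83, SE 0.213, edgeR adjusted p = 0.0401), and 1 fell, the elongation factor subunit Eef1d (-1.07, SE 0.272, adjusted p = 0.0382). None of 41 ribosome biogenesis genes passed, with a median of -0.24, and none of 3 other ribosomal proteins (Fau and Rack1 among them) or of 15 regulators such as those of the mTOR pathway. Of 77 mitochondrial ribosomal protein genes, Mrpl48 rose (1.06, SE 0.282, adjusted p = 0.0466), and the median of the list was 0.02. Cell type markers moved in this comparison, with 6 of 10 radial glia genes lower, 1 higher, and 5 of 11 projection neuron genes higher, 1 lower. Of the meninges genes 3 of 5 were lower and of the erythroid genes 1 of 6. Their part in the values of the members was not tested.

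**Figure D4:**
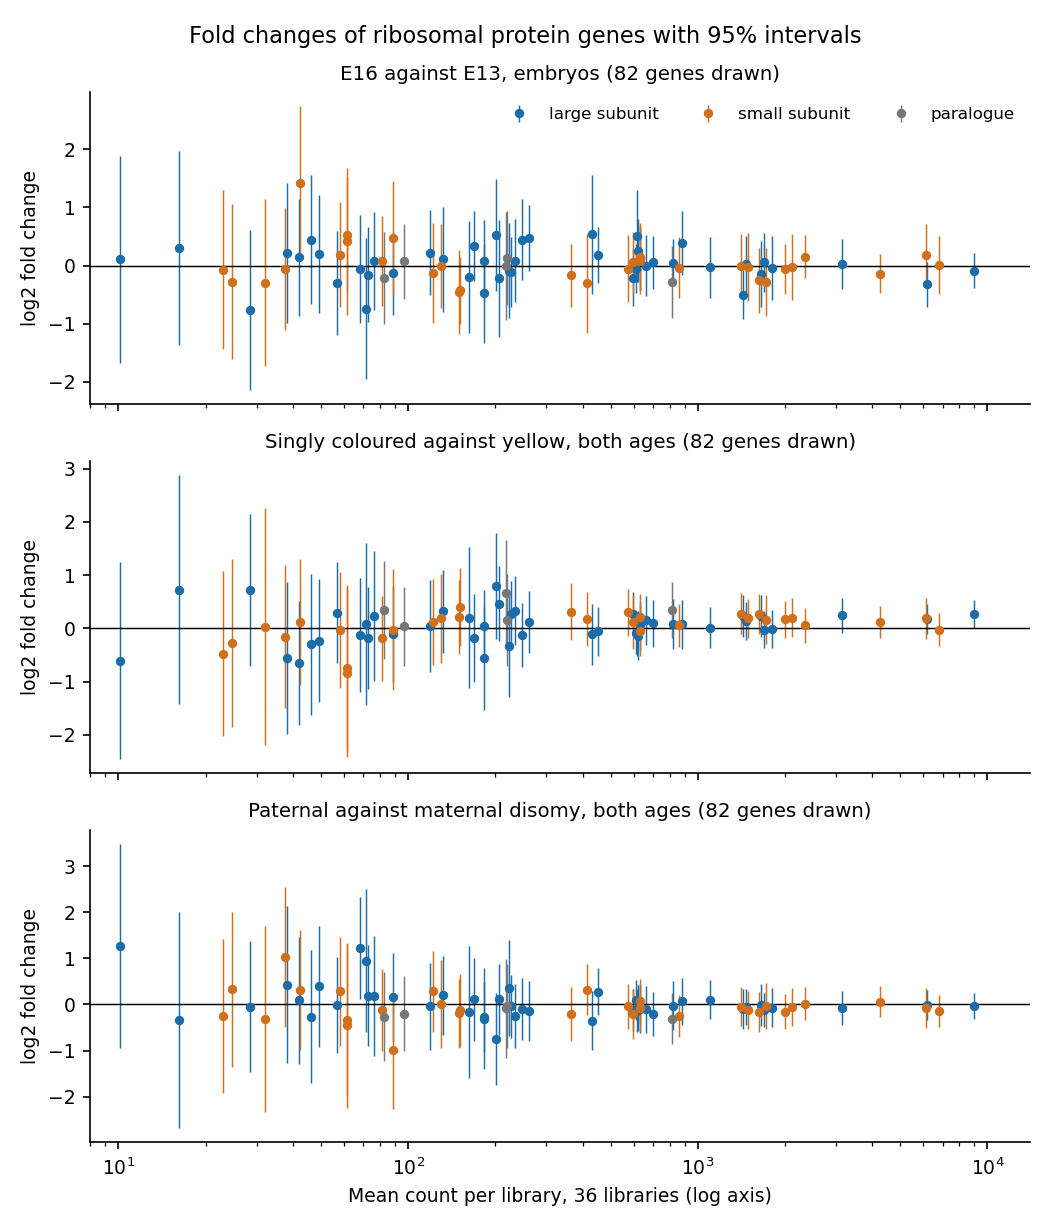
Log2 fold changes (vertical axes) of ribosomal protein genes in 3 comparisons, E16 against E13, singly coloured against yellow, and paternal against maternal UPD, against the mean count per library (horizontal axis, log scale). Points are estimates, lines are 95% intervals, and colours mark the subunit; Rpl10l is not drawn. The 19 genes with a mean count of 1000 or more lie between -0.50 and 0.28 in these 3 comparisons, and the intervals widen towards low counts.

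The second comparison set red and green cells, which carry UPD of chromosome 7 in either direction, against yellow cells of the same embryo. No member passed at E13 (83 tested), against 0.00848% of all genes (1 gene), and none at E16 (81 tested), where no gene of any kind passed (0.00%). At an unadjusted p under 0.05, 3 members were higher in singly coloured cells at E13, against 6.86% of all genes in either direction, and 0 of 81 at E16, against 2.38%. Over both ages 0 of 83 passed, against 0.00872% of all genes, and 2 had an unadjusted p under 0.05, against 4.99%. The median log2 fold change of the members was 0.16 at E13 and 0.06 at E16, and that of all genes -0.10 and 0.00. DESeq2 called 2 members at E13, Rpl4 and Rpl10l (4.66% of all genes), 0 at E16 (0.787%) and 1 over both ages, Rpl10l (1.64%). Rpl10l reached the minimum count only through its 387 counts in E13 yellow replicate 2, so its calls restate that library. The intervals of 27 members at E13, 36 at E16 and 48 over both ages lay within a log2 fold change of 1, against 4.0%, 8.57% and 13.3% of all genes. All 19 abundant members were among the 48, with estimates of -0.02 to 0.28. Of the 544 abundant genes of any kind, 84.0% had such intervals.

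The 3 members of smallest p at E13 were abundant. Rpl4 had 3735, 3482, 3989, 3549 and 3202 CPM in red libraries, 3836, 3549, 3346, 2535 and 3679 CPM in green and 3056, 1277, 1919, 2231 and 2409 CPM in yellow. It was higher in singly coloured cells in 4 of the 4 embryos with all 3 colours, by 0.66 on the log2 scale (95% interval 0.23 to 1.09, SE 0.200, adjusted p in edgeR = 0.528). Rplp0 had 0.66 (SE 0.236, adjusted p = 0.615), also with 4 of 4 embryos above 0, and Rps3 had 0.57 (SE 0.203, adjusted p = 0.619), again with 4 of 4. Without the libraries with few genes the values of Rpl4 and Rplp0 were 0.46 and 0.35, and none is given for Rps3. Rps3 was at 813 CPM in E13 yellow replicate 2, a library with few genes, and at 1053 to 1531 CPM in the other E13 yellow libraries. In replicate 1 it was at 1761 CPM in red, 1492 in green and 1531 in yellow cells.

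At E16 the values of these genes lay near 0. Rpl4 was at 2225 to 2864 CPM in red, 2301 to 2967 in green and 1419 to 3346 in yellow libraries, and the mean difference within embryos was 0.03 ± 0.377 (SD, n = 7, log2). Rplp0 differed by -0.04 ± 0.234 and Rps3 by -0.18 ± 0.294. The difference between the ages was tested by itself and passed for none of the 83 members, nor for any other gene (0.00%), and 3 members had an unadjusted p under 0.05, against 4.14% of all genes. DESeq2 called none of the members and 1.82% of all genes, and the intervals of 10 members lay within a log2 difference of 1, against 1.32% of all genes. The 3 were Rpl4 (-0.60, SE 0.241, edgeR adjusted p = 1), Rps3 (-0.69, SE 0.284) and Rplp0 (-0.65, SE 0.296). The smallest p values at E16 belonged to Rpl7l1, Rpl27 and Rps27l, with log2 fold changes of 0.67 (SE 0.514), 0.83 (SE 0.659) and 0.43 (SE 0.360) and adjusted p values of 1 in edgeR.

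The direction at E13 rested in part on 1 library. Of the 83 members 58 had a positive value at E13 (69.9%, against 46.2% of all genes), and of the 19 abundant ones 18, where 44.3% of the 544 abundant genes of any kind did. Without E13 yellow replicate 2 and E16 yellow replicate 7, 36 of 82 members were positive and the median turned to -0.07, against -0.29 for all genes. The share of gene counts was 0.51 points higher in singly coloured cells at E13 (SD 0.562, 4 embryos), with -0.135, 1.11, 0.826 and 0.241 points in the embryos of replicates 1, 2, 4 and 6. Without the libraries with few genes, embryos 1 and 6 still had all 3 colours, and their mean was 0.0528 points. With the red library of embryo 4 also counted, at 0.702 points above its yellow one, the mean of the 3 embryos was 0.269 points (SD 0.420). At E16 the difference was 0.0276 points (SD 0.432, 7 embryos).

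Cell type markers moved with the colours at E13. Summed over the list, radial glia genes were at 1983 to 3660 CPM in the 10 singly coloured libraries and at 1252 to 1856 in the 5 yellow ones, and projection neuron genes at 3383 to 5944 and 6127 to 8065, so that neither pair of ranges overlapped. Translation factors were at 11430 to 13280 CPM and 8709 to 10310 CPM. None of these lists had a gene past the test at E13. Over both ages Vim, an intermediate filament gene of radial glia, was higher (log2 fold change 1.27, SE 0.206, edgeR adjusted p = 0.0132). The part of these differences in the values of Rpl4, Rplp0 and Rps3 was not tested. Erythroid genes, of other cells, ran from 0.228 to 50530 CPM at E13 and from 0.460 to 6189 CPM at E16.

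The third comparison set patUPD against matUPD cells within embryos, the direct contrast of the parental origin of chromosome 7. No member passed at E13 (83 tested, 0.00% of all genes), at E16 (81 tested, 0.0278% of all genes) or over both ages (83 tested, 0.0697% of all genes, 8 genes). At an unadjusted p under 0.05 there was 0 at E13, 1 lower at E16 and 1 higher over both ages, against 2.24%, 2.31% and 2.33% of all genes. DESeq2 called 0 members at E16 (0.565% of all genes), and 1 at E13 (1.79%) and over both ages (0.767%). That was Rpl10l in each case, whose only counts among red and green libraries are the 8 in E13 green replicate 4, so it gives nothing on the contrast. The intervals of 32 members at E13, 25 at E16 and 48 over both ages lay within a log2 fold change of 1, against 5.54%, 5.6% and 11.8% of all genes. Over both ages the 19 abundant members had estimates of -0.16 to 0.11, all with such intervals. Of the 544 abundant genes of any kind, 88.2% had them.

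Rpl27, a large subunit protein, was the member of smallest p at E16. In red libraries it ran from 17.8 to 311 CPM (median 62.2) and in green from 21.7 to 186 (median 44.5), so that the colours overlapped. Within embryos, however, patUPD cells lay below matUPD cells in 7 of 7, by 0.632 to 2.83 on the log2 scale, and the fit gave a log2 fold change of -1.62 (SE 0.600, 95% interval -2.87 to -0.36, edgeR adjusted p = 1). At E13 patUPD cells were above matUPD cells in 3 of 5 embryos. The difference between the ages was -2.09 (SE 0.910, unadjusted p = 0.0295, adjusted p = 1). Rpl27 is at chr11:101442298-101445529 (GRCm38, plus strand), not on the chromosome whose origin differs. It was picked as the smallest of 81 p values.

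Over both ages the smallest p belonged to Rpl12, which binds at the base of the stalk. It was higher in patUPD cells in 4 of 5 embryos at E13 and 6 of 7 at E16, by 1.21 on the log2 scale (95% interval 0.11 to 2.32, SE 0.541, adjusted p in edgeR = 1). Its counts were low, with a mean of 68.4 per library. Rplp1, of smallest p at E13, was higher in patUPD cells in 5 of 5 embryos there, by 0.33 (SE 0.235, adjusted p = 1), and in 3 of 7 at E16.

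Of the members 14 are on chromosome 7 and hold 28.2% of the counts, among them Rpl13a, Rpl18, Rpl27a, Rpl28, Rplp2, Rps3, Rps9, Rps13, Rps15a, Rps16 and Rps19. All 14 were tested and none passed. Over both ages 5 of the 14 had a positive log2 fold change, up to 0.29 for Rps13, and the median was -0.05, against -0.06 for all members and 0.02 for all genes. Rps3 (chr7:99477896-99483738, minus strand) was at 0.06 (SE 0.165, 95% interval -0.28 to 0.39). Rps9 was at 0.02 (SE 0.175, 95% interval -0.34 to 0.38) and Rps19 at -0.06 (SE 0.205, 95% interval -0.47 to 0.36). The intervals of these 3 abundant genes leave out a log2 difference of 0.5 in either direction.

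The sign of the median over members differed between the ages in this contrast. At E13 51 of 83 were positive, with a median of 0.12 against -0.05 for all genes, and at E16 21 of 81 were positive, with a median of -0.19 against 0.09. Of the 19 abundant members 16 were positive at E13 and 0 at E16, where 55.7% and 43.2% of the abundant genes of any kind were. The test of the difference between the ages passed for no member, nor for any gene (0.00%), and 1 member had an unadjusted p under 0.05, against 2.54% of all genes. DESeq2 called none of the members and 1.46% of all genes, and the intervals of 8 members lay within a log2 difference of 1, against 1.14% of all genes. Without the libraries with few genes 36 of 82 members were positive at E16 and the median was -0.03. In the share of gene counts, patUPD minus matUPD was 0.0988 points at E13 (SD 0.120, above 0 in 4 of 5 embryos) and -0.139 points at E16 (SD 0.567, above 0 in 3 of 7), and -0.00386 points at E16 in the 4 embryos left without those libraries (SD 0.597). The members were measured in the same libraries, so they are not separate measurements of a direction.

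None of the other lists of the translation machinery had a gene past the test in this contrast. The medians over both ages were -0.01 for translation factors, 0.09 for ribosome biogenesis genes, 0.10 for the regulators and 0.08 for mitochondrial ribosomal protein genes.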

How the data were processed

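RNA of small pools of sorted cells was amplified with Smart-Seq2, without molecular identifiers or strand. The authors aligned reads with STAR 2.5.0c to GRCm38 with Gencode M16, kept reads with 1 alignment, combined technical replicates and deposited raw read counts per gene, not normalised. The unstranded column was used here. Counts on either strand alone came to 54.6% and 53.0% of it (medians). Symbols and positions are from Gencode M21 of the same build (53274 of 53379 identifiers matched). Reads of overlapping genes or near-identical copies are dropped, so values of members with few unique stretches are uncertain.

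Groups came from the labels. The labels do not give the parental direction, which was taken from the series' rule and the study's sample table. In that table E16 yellow replicate 3 is listed under the other cross than its embryo, which changes no direction. It was still taken as the same embryo in the sums by age and in the colour contrast. The members and lists were chosen with earlier results of these data known. Libraries with under 40% uniquely aligned reads (3) were left out, the other 36 having 50.5% to 66.0%. Gene counts per library were 472924 to 5205788 and the floor of 3 counts is 0.576 to 6.34 CPM. PCR reads are not independent molecules, so counting limits cover counting error only. No 2 libraries of a group agreed within sampling noise (smallest chi-square per gene 14.4). Of the markers of the tissue, Tbr1 and Neurod6 had counts in all 36 libraries and Emx1 was at 0 in 3.

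Counts were fitted in edgeR 4.0.16 (R 4.3.3) with TMM, a mean count of 10 or more and the quasi-likelihood test, with Benjamini-Hochberg adjustment over all genes tested. Ages were compared on counts summed per embryo and by colour. Other contrasts had the embryo as a block, as in the study. The study's methods give each replicate as a single individual, so a shared age and replicate number was taken here to mean 1 embryo. Deviations from the group means had a mean correlation within such embryos of 0.0429 at E13 (0.00574 to 0.101) and 0.0249 at E16 (-0.0879 to 0.0927). Between embryos the means were -0.00893 (-0.0783 to 0.0546) and -0.00263 (-0.0969 to 0.216). These ranges overlap, so the correlations do not settle the pairing. The 95% intervals use the SE from the F statistic. The script was tested on simulated data. Named genes were the members past the threshold or otherwise the 3 of smallest p in each comparison, 10 fixed genes, the extremes per kb and the members on chromosome 7. Some of these are not reported here. Genes with a mean count of 1000 or more were grouped after the values were seen. Alternatives were DESeq2 1.42.0, other scaling, no filter, other sets of libraries and leaving out each embryo. Start sites and promoters are from RefSeq for GRCm38.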

Additional observations from a re-analysis of the deposited data

Results flagged for a closer look

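Of 84 groups of 5 or 7 libraries examined (each measure in each age and colour), 7 had a library that lay apart from the others by Dixon's criterion, where chance gives about 1 in 20 groups. In E13 green replicate 4 the members took 3.22% of gene counts, against 2.38% to 2.56% in the other 4 libraries, and large subunit genes took 1.57%, against 1.27% to 1.34%. In E16 yellow replicate 7 small subunit genes took 0.432%, against 1.01% to 1.44%. E13 yellow replicate 2 had counts of 77 members, against 82 or 83. Rplp0 was at 325 CPM in E16 green replicate 7, against 810 to 1023, and Rplp2 was at 472 CPM in E16 red replicate 5, against 63.4 to 239. Rpl22l1 was at 40.5 CPM in E13 green replicate 2, against 80.8 to 93.0. The first 6 of these values come from libraries with under 11000 genes detected, and the last does not.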

How the results depend on the processing

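Over 240 further fits (127 of which left out 1 embryo each), no member passed in 232. The number of members past the threshold moved from 0 to 1 or 2 in the other 8. With DESeq2 there was 1 member for E16 against E13 in green cells (Rps3, adjusted p = 0.0183), 2 for singly coloured against yellow at E13 (Rpl4, adjusted p = 0.0212, and Rpl10l), and 1 each for singly coloured against yellow over both ages and for the UPD contrast at E13 and over both ages, always Rpl10l. Without the replicate block, 1 member passed for singly coloured against yellow over both ages, again Rpl10l (log2 fold change -4.97, adjusted p = 0.0371). All calls of Rpl10l rest on 1 library, its 387 counts in E13 yellow replicate 2 for colour and its 8 counts in E13 green replicate 4 for UPD. The pairing changed no other call of a member. Over all genes, calls without the block moved from 1 to 9 for colour at E13 and from 1 to 33 over both ages. For UPD over both ages they moved from 8 to 12, and in the other contrasts they did not move. For E16 against E13 in embryos, 1 member (Rpl14) passed with the libraries used by the study and, in an alternative chosen after seeing the data, without the libraries with under 11000 genes. The median over members took the other sign in some fits: for age in 7 of 23 in embryos (-0.15 to 0.09), 6 of 21 in yellow (-0.23 to 0.08), 2 of 21 in red (-0.12 to 0.16) and 1 of 21 in green cells (-0.31 to 0.04), for colour in 4 of 15 at E13 (-0.10 to 0.33), 1 of 16 at E16 (-0.005 to 0.21), 3 of 22 over both ages (-0.05 to 0.17) and 6 of 22 for the difference (-0.28 to 0.11), and for UPD in 4 of 23 over both ages (-0.14 to 0.02) and none at E13, E16 or for the difference. Calls over all genes moved with DESeq2, from 524 to 1271 for age in embryos, 17 to 198 in yellow, 36 to 312 in red and 155 to 691 in green cells, from 1 to 549 and 0 to 85 for colour at E13 and E16, 1 to 188 over both ages, and from 0 to 211, 3 to 61 and 8 to 88 for UPD at E13, E16 and both ages. For the 2 differences between ages it moved from 0 to 209 and 167. With 1 embryo left out they were 297 (without E13 replicate 4) to 570 for age in embryos, 1 (without E13 replicate 4) to 31 in yellow, 5 (without E13 replicate 2) to 78 in red and 71 (without E16 replicate 3) to 203 in green cells. Without the libraries with few genes, calls for age were 906 in embryos, 146 in yellow and 189 in red cells. Left-out embryos moved the median over members between -0.06 and 0.33 for singly coloured against yellow at E13, and between -0.34 and -0.09 for the UPD contrast at E16. Scaling by library size alone shifted the median of all genes by -0.14 for E16 against E13 in embryos and in red cells, and by 0.12 for the difference between ages of the UPD contrast. With it, members at E16 had medians of -0.15 and -0.12, below zero in both. Over both ages the median SE of the members was 0.32 for colour and 0.34 for UPD. A member that did not pass was not shown to be equal between groups.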

Other observations

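Rpl10 and its retrogene Rpl10l were both at their highest in E13 yellow replicate 2, with 273 CPM of Rpl10, against 53.6 to 93.7 in the other 4 yellow libraries, and 387 counts of Rpl10l, against 0 or 1. Rpl39l had 45 counts in E13 yellow replicate 4, 21 in E13 yellow replicate 1, 5 in E13 green replicate 3 and none in the other 33 libraries. Annotated ribosomal protein pseudogenes took 0.034% ± 0.00917 of gene counts (SD, n = 36), and mitochondrial ribosomal protein genes took 1.24% ± 0.226, with no overlap in symbols with the members. Rpl34 ran from 10.9 CPM in E13 green replicate 4 to 698 CPM in E16 red replicate 5, the 2 libraries with the highest shares of gene counts in the members.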
